A study of Mus musculus with 6 samples.

Results

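The 10 genes described here encode the signaling chains of the T cell receptor complex (*Cd3d*, *Cd3e*, *Cd3g* and *Cd247*), its coreceptors (*Cd4*, *Cd8a* and *Cd8b1*), its first kinases (*Lck* and *Zap70*) and the costimulatory receptor *Cd28*. They were listed by name among the 55573 genes of the deposited count table, and all 10 had counts in each of the 6 libraries and passed the filter on low counts. The libraries came from adult C57BL/6J mice whose retinal cells had been sorted to enrich retinal ganglion cells (RGCs), the neurons that send their axons through the optic nerve. Control mice had received AAV2-*GFP* in the vitreous (GFP replicates 1 to 3), and the other mice AAV2-*Ezh2*, which overexpresses the catalytic subunit of the histone methyltransferase complex PRC2 (Ezh2 replicates 1 to 3). In both groups the optic nerve was crushed (ONC) 2 weeks after the injection and cells were sorted 3 days after ONC. Both groups therefore carried a virus and an injured nerve, and no library without either was analysed here. Per the study's methods, living cells were sorted by an antibody to CD90.2, which *Thy1* encodes, and AAV2 also enters retinal cells other than RGCs. The promoter of the vectors used for these libraries is not given in the sources used here. How many mice gave each library, and whether replicates came from separate mice, is not given in the sources used here, so p values measure the spread between these libraries.

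Libraries held 30569933 to 35971192 counts. *Ezh2* itself, the check of the labels, lay at 28.8 to 34.6 CPM (counts per 1000000 of the library total) in the GFP libraries and at 65.3 to 104.8 CPM in the Ezh2 libraries. The study excluded 1 library of the Ezh2 group, inferred here to be Ezh2 replicate 3, so the main comparison used 5 libraries and Ezh2 replicate 3 is given apart. The labeled cell type was only partly visible in its markers. The RGC transcription factor *Pou4f2* had at most 0.0932 CPM in any library, at or below the level of 3 counts that a count of 0 allows, and *Pou4f1* at most 0.600 CPM, whereas the RGC marker *Rbpms* had 16.4 to 20.8 CPM. *Glul*, the glutamine synthetase of Muller glia, had 5446 to 9900.15 CPM.

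On the surface of a T cell, the antigen receptor chains recognize a peptide held by an MHC molecule but cannot signal alone. The CD3 chains and the zeta chain encoded by *Cd247* carry the tyrosine motifs that Lck phosphorylates, and Zap70 then binds the phosphorylated motifs and passes the signal on. CD4 binds MHC class II and CD8, a pair of alpha and beta chains, binds MHC class I, and both bring Lck to the receptor. Mature helper and regulatory T cells carry CD4, and cytotoxic T cells carry CD8. Mouse T cells also carry Thy1 on their surface, so a sort for CD90.2 does not by itself separate them from RGCs. Natural killer cells share *Cd247*, *Lck* and *Zap70* with T cells, and some dendritic cells carry *Cd8a* or *Cd4*. The healthy retina holds few T cells.

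Members that lie close together in the genome bear on what can be compared. In GRCm38 coordinates, *Cd3g* (chr9:44969572-44980431, minus strand) and *Cd3d* (chr9:44981786-44987339, plus strand) are transcribed away from each other with 1354 bases between them, and *Cd3e* (chr9:44998740-45009627, minus strand) follows. *Cd8b1* (chr6:71322788-71337494) and *Cd8a* (chr6:71373427-71379173) lie on the plus strand of 1 chromosome. To show the starts of the genes on which the results turn, the RefSeq windows (GRCm38.p6) from 250 bases before to 50 bases after the start are printed 5′ to 3′ for the adjacent *Cd3d* (chr9:44981536-44981835, plus strand) and *Cd3g* (chr9:44980382-44980681, minus strand), which parted in Ezh2 replicate 3, and for *Cd8a* (chr6:71373177-71373476, plus strand), which changed most. Capitals mark the matches of 6 motifs searched on both strands.
Cd3d: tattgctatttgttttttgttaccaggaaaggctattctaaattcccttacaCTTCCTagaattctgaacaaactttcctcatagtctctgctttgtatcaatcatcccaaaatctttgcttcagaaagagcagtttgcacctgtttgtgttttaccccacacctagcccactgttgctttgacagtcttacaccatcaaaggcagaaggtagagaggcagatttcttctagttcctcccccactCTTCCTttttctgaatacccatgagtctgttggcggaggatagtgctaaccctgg
Cd3g: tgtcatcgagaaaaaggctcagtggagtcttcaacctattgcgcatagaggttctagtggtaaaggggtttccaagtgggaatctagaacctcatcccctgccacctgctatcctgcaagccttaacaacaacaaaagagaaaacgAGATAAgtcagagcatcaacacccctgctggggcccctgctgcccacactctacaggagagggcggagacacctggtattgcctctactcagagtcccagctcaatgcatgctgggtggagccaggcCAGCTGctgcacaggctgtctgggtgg
Cd8a: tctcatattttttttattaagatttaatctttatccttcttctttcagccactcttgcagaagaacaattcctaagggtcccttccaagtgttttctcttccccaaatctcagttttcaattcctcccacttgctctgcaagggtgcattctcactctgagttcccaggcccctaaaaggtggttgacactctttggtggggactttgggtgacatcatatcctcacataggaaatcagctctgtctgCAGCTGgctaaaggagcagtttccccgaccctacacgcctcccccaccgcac
The motif searched for ETS factors was AGGAAG and that for RUNX factors TGTGGT. For factors that bind an E-box the motif was CAGCTG. The GATA factor motif was written as AGATAA. For the TATA box the letters searched were TATAAA. The cyclic AMP response element was TGACGTCA. The table gave windows for 7 of the 10 members, and none for *Cd4*, *Cd8b1* and *Cd28*. In *Cd3d*, both capital runs are the ETS motif read on the other strand. *Cd3g* held a GATA and an E-box match, and *Cd8a* an E-box match only. Among the 10 windows of the 7 members, which include 2 of *Lck* and 3 of *Zap70*, 7 held the ETS motif, compared with 35.4% of 32851 windows of that length. RUNX and E-box matches each stood in 2 windows (16.8% and 16.3% of all windows), GATA and cyclic AMP response element matches in 1 (11.2% and 1.79%), and TATAAA in 0 (13.6%). No match overlapped another. Windows of 1 gene are not independent, and a match is a run of letters, not a binding site.

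With *Ezh2* overexpression, RNA of the coreceptor genes *Cd8a* and *Cd8b1* rose about 2.5-fold, and 7 of the other 8 members rose 1.21- to 1.31-fold. *Cd4* did not pass the test. In the 5 libraries, 9 of the 10 members had an adjusted p under 0.05 in the higher direction (quasi-likelihood test of edgeR, adjusted after Benjamini and Hochberg over all 20241 genes tested), where 10.1% of tested genes did. A gene was called when it also changed more than 1.5-fold, and 2 members were called higher, against 2.52% of tested genes. All 10 members had a fitted change above 0, so 0 were called lower. For 9 members, with *Cd4* the exception, both Ezh2 libraries lay above the 3 GFP libraries, as did 21.5% of tested genes. The median log2 fold change of the members was 0.34 and that of all tested genes -0.0078. In these bulk samples, the number of cells that carry these genes, the mix of such cells and their RNA per cell cannot be told apart.

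**Figure D1:**
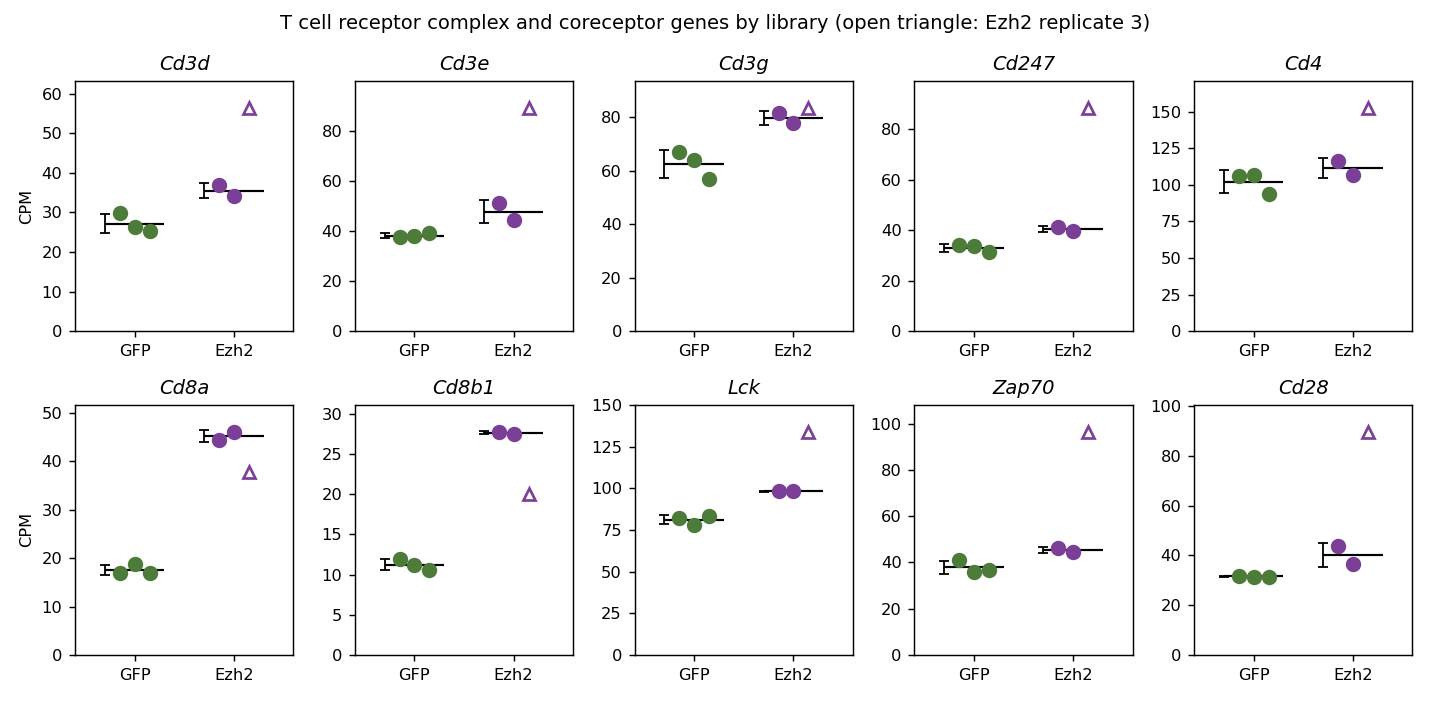
Each panel plots 1 gene in CPM (vertical axis from 0) in the 3 GFP libraries (green) and the 3 Ezh2 libraries (purple), with Ezh2 replicate 3 as an open triangle. Lines are means and bars SD of the 3 GFP libraries and of Ezh2 replicates 1 and 2, and a reader should see *Cd8a* and *Cd8b1* at 44.5 and 27.8 CPM in Ezh2 replicate 1 against at most 18.7 and 11.9 CPM in GFP libraries, and the triangle far above the other points for *Cd247*, *Zap70* and *Cd28*.

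The receptor's signaling chains were examined first. *Cd3e* (ENSMUSG00000032093), whose chain pairs with both the gamma and the delta chain, had 37.6, 37.9 and 39.1 CPM in the 3 controls and 51.0 and 44.4 CPM in Ezh2 replicates 1 and 2. The 3 controls lay within 2 CPM of each other, and both Ezh2 libraries lay above them. Its log2 fold change was 0.33 ± 0.07 (SE, edgeR adjusted p = 0.00176). *Cd3d* (ENSMUSG00000032094), the delta chain, had 29.96, 26.2 and 25.4 CPM in the GFP libraries and 36.8 and 34.2 CPM in the Ezh2 libraries. The lower Ezh2 library stood above the highest control. The log2 fold change was 0.39 ± 0.09 (SE, edgeR adjusted p = 0.00107). *Cd3g* (ENSMUSG00000002033), the gamma chain, reached 67.0, 63.9 and 56.7 CPM in the controls and 81.5 and 77.7 CPM with *Ezh2*. The groups did not overlap, and the log2 fold change was 0.36 ± 0.07 (SE, edgeR adjusted p = 0.000191).

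*Cd247* (ENSMUSG00000005763, chr1:165788681-165877277, plus strand), the zeta chain, had 34.0, 33.6 and 31.4 CPM in the GFP libraries. It had 41.4 and 39.6 CPM in Ezh2 replicates 1 and 2, again with no overlap. Its log2 fold change of 0.31 ± 0.08 (SE) had an edgeR adjusted p of 0.00457. Of its 5329 exon bases, 3007 also lie in exons of *Pou2f1* on the opposite strand. The strand setting of the counting is not given in the sources used here, so *Cd247* counts are uncertain to that extent. *Pou2f1* had 72.7 to 82.5 CPM in the GFP libraries and 68.0 to 70.9 CPM in the Ezh2 libraries, the opposite direction to *Cd247*. For *Cd3e* the antisense overlap is 135 bases with *Gm48719*, which had 0 counts in all 6 libraries, a count that allows up to 0.0981 CPM.

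The 3 coreceptor genes differed among themselves. *Cd8a* (ENSMUSG00000053977), the alpha chain of CD8, had 17.0, 18.7 and 17.0 CPM in the GFP libraries and 44.5 and 46.2 CPM in Ezh2 replicates 1 and 2. *Cd8b1* (ENSMUSG00000053044), the beta chain, had 11.9, 11.2 and 10.6 CPM in the GFP libraries and 27.8 and 27.5 CPM in the Ezh2 libraries. For both genes the lower Ezh2 library was more than 2 times the highest control. *Cd8a* rose 2.60-fold (95% interval 2.31 to 2.92), with an edgeR adjusted p of 2.76e-13. *Cd8b1* rose 2.48-fold (2.16 to 2.85), with an edgeR adjusted p of 3.93e-11. *Cd4* (ENSMUSG00000023274, chr6:124864692-124888221, minus strand) had 106.2, 107.0 and 93.6 CPM in the controls. It had 116.3 and 106.4 CPM in Ezh2 replicates 1 and 2, the second of which lay among the controls. The fold of *Cd4* was 1.10 (1.01 to 1.19) and its edgeR adjusted p 0.136. The interval of *Cd4* ended below those of both CD8 chains.

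Markers of other cells that share these genes also differed between the groups. Of 9 natural killer and cytotoxic cell genes, 4 were called higher (*Ncr1*, *Klrb1c*, *Prf1* and *Eomes*) and 7 had an edgeR adjusted p under 0.05 in that direction. For this list and those below, the shares over all tested genes were 2.52% and 10.1%. *Eomes* was low, at 1.58 to 1.96 CPM in the controls and 3.70 and 2.74 CPM in Ezh2 replicates 1 and 2. The summed level of the 9 genes was 99.7 to 113.2 CPM in the GFP libraries and 146.5 to 147.1 CPM in Ezh2 replicates 1 and 2. It was 191.3 CPM in Ezh2 replicate 3. *Ncr1*, a receptor of natural killer cells that most T cells lack, had 1.53 to 1.96 CPM in the controls and 5.47 and 6.14 CPM in Ezh2 replicates 1 and 2. *Prf1*, the pore-forming perforin of killer cells of both kinds, had 5.66 to 6.93 CPM in the controls and 12.8 and 13.6 CPM in those libraries. In Ezh2 replicate 3, the 9 genes had a median log2 ratio of -0.16 to the mean of the other Ezh2 libraries. That of all tested genes was -0.12. *Prf1* had 6.53 CPM in Ezh2 replicate 3, whereas the granzyme gene *Gzmb* had 86.2 CPM against 37.8 and 34.9 CPM. With all 6 libraries 4 of the 9 passed the adjusted p, and *Prf1* and *Eomes* did not (0.0818 and 0.128). The part of these cells in the rise of the CD8 chains was not tested.

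The kinases changed less than the CD8 chains. *Lck* (ENSMUSG00000000409, chr4:129548344-129573641, minus strand), the Src family kinase bound to the coreceptor tails, had 82.2, 78.3 and 83.2 CPM in the GFP libraries and 98.2 and 98.4 CPM in the Ezh2 libraries. Both values lay above every control, and the log2 fold change was 0.29 ± 0.06 (SE, edgeR adjusted p = 0.000404). *Zap70* (ENSMUSG00000026117, chr1:36761798-36782818, plus strand) had 41.0, 35.7 and 36.7 CPM in the GFP libraries and 46.4 and 44.5 CPM in Ezh2 replicates 1 and 2. Its log2 fold change was 0.28 ± 0.08 (SE, edgeR adjusted p = 0.0102).

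*Cd28* (ENSMUSG00000026012, chr1:60716800-60773359, plus strand), the receptor for CD80 and CD86 on antigen-presenting cells, had 31.9, 31.5 and 31.5 CPM in the controls, the narrowest spread among the members. The Ezh2 libraries had 43.6 and 36.6 CPM. These did not overlap the controls but lay further apart than the controls did. The log2 fold change was 0.35 ± 0.08 (SE, edgeR adjusted p = 0.00200). Some of these small changes did not pass when a certain library was left out. Without Ezh2 replicate 1, the log2 fold change was 0.24 for *Cd28* (edgeR adjusted p = 0.108), 0.24 for *Cd3e* (0.0701) and 0.26 for *Zap70* (0.0567). Without GFP replicate 2 it was 0.24 for *Zap70* (0.0619).

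Comparing genes with each other needs a level per length, here RPKM (CPM per kilobase of exon). In the GFP group *Lck* stood highest at 27.7 ± 0.884 RPKM (SD, n = 3). *Cd4* followed at 25.4 ± 1.87 RPKM and *Cd3g* at 19.1 ± 1.62 RPKM. *Cd3d*, *Zap70*, *Cd3e*, *Cd8b1* and *Cd247* came next, from 14.98 ± 1.34 down to 6.19 ± 0.266 RPKM. *Cd28* at 5.17 ± 0.0374 RPKM and *Cd8a* at 4.83 ± 0.276 RPKM were lowest, and only the ranges of this last pair overlapped among neighbors in the order. In Ezh2 replicates 1 and 2 the first 4 genes stood in the same order, from *Lck* at 33.5 ± 0.0498 RPKM (SD, n = 2) to *Cd3d* at 19.6 ± 1.02 RPKM. *Cd8b1* moved from place 7 to place 5 at 18.6 ± 0.131 RPKM. *Cd8a* moved from place 10 to place 7 at 12.5 ± 0.334 RPKM, where its range overlapped that of *Cd3e*.

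Ratios between members within a library do not depend on its total count. *Cd4* made up 86.2%, 85.1% and 84.6% of the summed *Cd4* and *Cd8a* counts in GFP replicates 1 to 3 and 72.3% and 69.7% in Ezh2 replicates 1 and 2. The Wilson 95% intervals, which cover counting error only, spanned 83.4% to 87.3% over the controls and 68.5% to 73.5% over these Ezh2 libraries, and did not meet. Per 100 counts of *Cd3e*, *Cd8a* had 45.2, 49.4 and 43.5 counts in the controls and 87.2 and 104.0 counts in the Ezh2 libraries. Per 100 counts of *Cd3g*, it had 25.3, 29.3 and 30.02 counts in the controls and 54.6 and 59.5 counts in the Ezh2 libraries. Thus *Cd8a* was about 2 times as high relative to both CD3 chains. The proportion of the 2 chains of CD8 overlapped between the groups, with 69.9, 60.0 and 62.1 *Cd8b1* counts per 100 *Cd8a* counts in the controls and 62.5 and 59.6 with *Ezh2*.

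Most other ratios overlapped between the groups. Relative to *Cd3e*, *Cd28* stood at 80.5 to 84.9 counts per 100 in the controls and at 85.4 and 82.4 in Ezh2 replicates 1 and 2. *Lck* stood at 206.5 to 218.8 and at 192.4 and 221.5 counts per 100 counts of *Cd3e*. *Zap70* stood at 93.8 to 109.1 and at 91.0 and 100.3. *Cd4* stood at 239.1 to 282.7 per 100 counts of *Cd3e* in the controls and at 227.9 and 239.5 with *Ezh2*, a small overlap. Per 100 counts of *Cd3g*, *Cd4* had 158.6 to 167.5 in the controls and 142.7 and 137.0 with *Ezh2*, with no overlap. The summed level of the 10 members was 425.2 to 458.8 CPM in the controls and 555.5 and 587.4 CPM in Ezh2 replicates 1 and 2. For the summed level, the *Cd4* share, the ratios of *Cd8a* to either CD3 chain and that of *Cd4* to *Cd3g*, the two-sided exact permutation p was 0.1, the smallest that 3 against 2 libraries allow. Adjusted over the 15 such measures by the Benjamini-Hochberg method it was 0.214, so none passes at this number of libraries. With Ezh2 replicate 3 included, the exact permutation p was 0.1 for the *Cd4* share, the summed level and *Cd8a* relative to *Cd3g*. That is the smallest that 3 against 3 libraries allow, and it was 0.3 after Benjamini-Hochberg adjustment over the 15 measures. The exact permutation p was 0.4 for *Cd8a* relative to *Cd3e* and 0.5 for *Cd4* relative to *Cd3g*.

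**Figure D2:**
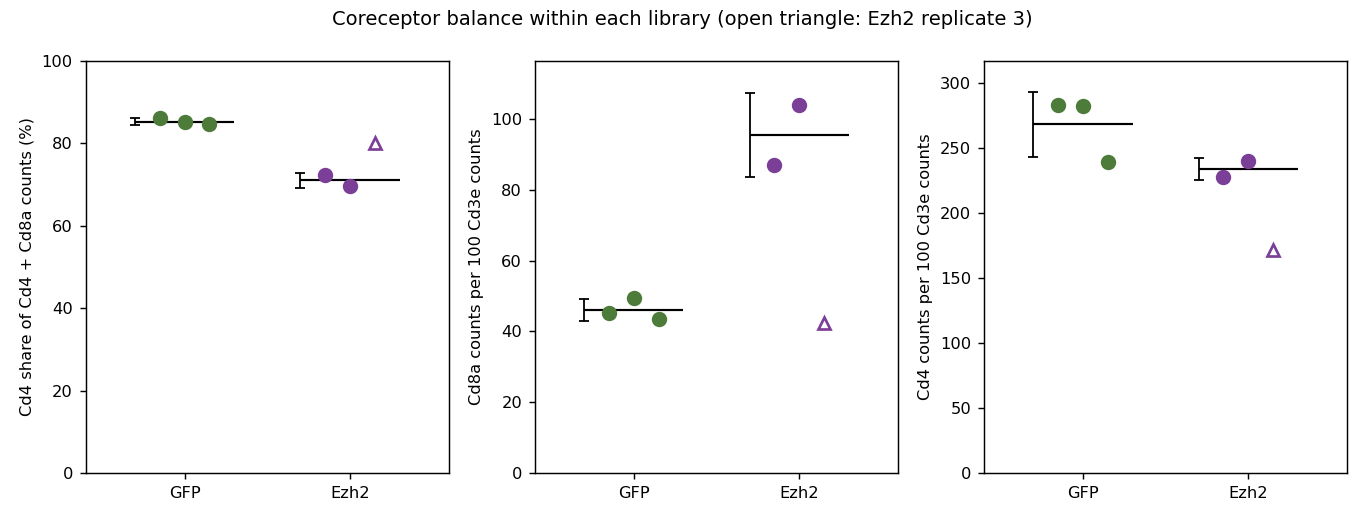
The panels plot, for each library, the percentage of *Cd4* in the summed *Cd4* and *Cd8a* counts, *Cd8a* counts per 100 *Cd3e* counts and *Cd4* counts per 100 *Cd3e* counts, with the 3 GFP libraries in green, the Ezh2 libraries in purple and Ezh2 replicate 3 as an open triangle. Lines and bars are mean and SD without that library, which at 42.4 *Cd8a* counts per 100 *Cd3e* counts sits below the 3 controls, while Ezh2 replicates 1 and 2 sit at 87.2 and 104.0.

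Ezh2 replicate 3 had the highest level of 8 members among all 6 libraries, but not of the CD8 chains. It held 56.4 CPM of *Cd3d*, 89.2 CPM of *Cd3e*, 88.6 CPM of *Cd247* and 96.6 CPM of *Zap70*. *Cd28* reached 89.8 CPM there, 2.24 times the mean of the other Ezh2 libraries. *Cd8a* at 37.9 CPM and *Cd8b1* at 19.96 CPM were below both other Ezh2 libraries, at 0.835 and 0.722 times their mean, and still above every control. *Cd3g* at 83.4 CPM was only 1.05 times that mean. So in this library the adjacent *Cd3g* and *Cd3d* (1.59 times) parted, and RPKM of *Cd3g* over that of *Cd3e* was 1.17, against 1.81 to 2.22 in the other 5 libraries. *Cd4* made up 80.1% (79.2% to 81.1%) of *Cd4* and *Cd8a* counts, between the values of the controls and of the other Ezh2 libraries. The library lay above both other Ezh2 libraries in 8 of 10 members, where 32.5% of tested genes did. The median log2 ratio to the mean of those libraries was 0.56 for the members and -0.12 for all tested genes. With 1 library there is no test.

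When all 6 libraries were fitted, *Cd8a* and *Cd8b1* remained called and the small changes, except that of *Cd3g*, did not pass. *Cd8a* had a log2 fold change of 1.32 ± 0.10 (SE, edgeR adjusted p = 0.000367). For *Cd8b1* it was 1.19 ± 0.14 (SE, edgeR adjusted p = 0.00249). *Cd3g* also passed, at 0.41 ± 0.09 (SE) and an edgeR adjusted p of 0.0290. The other 7 members had adjusted p values of 0.0905 to 0.258. The 2 called members compare with 1.62% of 19732 tested genes called higher, and the 3 members past the adjusted p with 3.08% of them. All 3 Ezh2 libraries lay above all 3 GFP libraries for 9 members, and for 14.9% of tested genes. The median log2 fold change was 0.76 in this fit and 0.0083 over all tested genes, and the errors of single genes were wider. The log2 fold change was 0.90 ± 0.39 (SE) for *Cd28* and 0.83 ± 0.37 (SE) for *Cd247*.

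**Figure D3:**
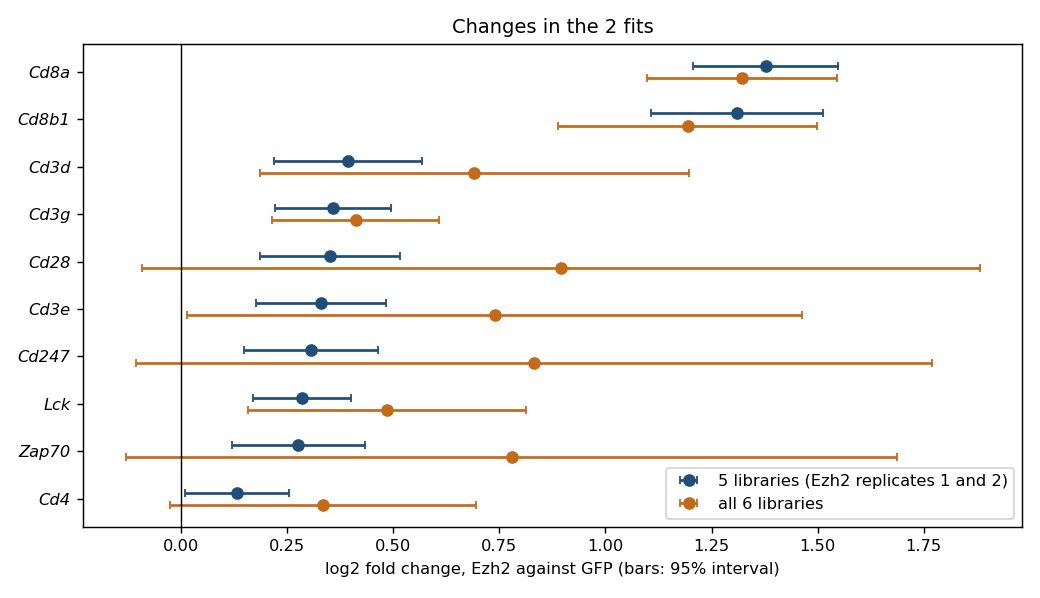
The plot gives the log2 fold change of each member between Ezh2 and GFP libraries, with 95% intervals, fitted on 5 libraries (blue) and on all 6 (orange). *Cd8a* at 1.38 and 1.32 and *Cd8b1* at 1.31 and 1.19 lie apart from the other 8 genes in the 5-library fit, and the orange intervals of *Cd247*, *Zap70*, *Cd28* and *Cd4* include 0.

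The other genes of the pathway were read from lists of constant regions, adaptors, regulators and targets. Of 10 listed constant genes of the antigen receptor, 7 were in the table. *Trac*, the constant region of the alpha chain, had 45.1 to 48.6 CPM in the controls, 58.3 and 57.9 CPM in Ezh2 replicates 1 and 2 and 106 CPM in Ezh2 replicate 3. With *Trbc1*, *Trbc2* and *Tcrg-C2* it was 1 of 4 genes past the adjusted p, all higher, and 0 were called. *Trbc1* and *Trbc2* are near-identical copies, so their separate counts are uncertain. Of 19 genes of proximal signaling, 12 passed the adjusted p in the higher direction and 1, the kinase gene *Txk*, was called. *Txk* had 3.27 to 3.35 CPM in the controls and 6.89 and 5.77 CPM in Ezh2 replicates 1 and 2. The exchange factor gene *Vav1* had 81.1 to 86.1 CPM in the controls and 128 and 119 CPM in those libraries, a log2 fold change of 0.56 ± 0.06 (SE, edgeR adjusted p = 9.32e-09). The adaptor *Lcp2* also rose, by 0.45 on the log2 scale, whereas the phospholipase *Plcg1* was at 0.02 (edgeR adjusted p of 0.850).

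Of 14 negative regulators, 10 passed the adjusted p as higher and 1 was called, and *Pag1* had a log2 fold change of -0.10 (edgeR adjusted p = 0.221). The called gene was *Ptpn6*, a phosphatase also used by many other blood cells, at 89.5 to 99.4 CPM in the controls and 145 and 144 CPM in Ezh2 replicates 1 and 2. *Csk*, the kinase that holds Lck inactive, rose by 0.38 on the log2 scale (edgeR adjusted p of 8.76e-06), and *Cd5* by 0.37 (8.32e-05). Among 14 other costimulatory and inhibitory receptors, 4 passed as higher (*Cd2*, *Pdcd1*, *Tnfrsf18* and *Btla*) and 0 were called. Among 8 ligands of the members, 3 MHC genes passed (*H2-D1*, *H2-Aa* and *H2-Ab1*) with log2 fold changes of 0.18 to 0.22. *Cd80* and *Cd86*, the ligands of CD28, had log2 fold changes of 0.05 and 0.04, with edgeR adjusted p values of 0.874 and 0.798.

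Of 12 genes induced when T cells are activated, 6 passed as higher and 3 were called (*Egr1*, *Egr3* and *Ifng*). *Ifng*, a cytokine of cytotoxic and natural killer cells, had 2.88 to 3.95 CPM in the controls and 5.78 and 4.68 CPM in Ezh2 replicates 1 and 2. *Egr1*, an immediate early gene made by many cell types, had 88.0 to 94.5 CPM in the controls and 188 and 162 CPM in those libraries. *Il2ra*, *Cd69* and *Nr4a1* did not pass in the 5 libraries, with adjusted p values of 0.476, 0.165 and 0.837. Medians of the log2 fold change were 0.27 for the constant genes, 0.26 for proximal signaling, 0.30 for negative regulators, 0.19 for the other receptors, 0.09 for ligands and 0.50 for activation targets, beside -0.0078 for all tested genes. In the fit to all 6 libraries, *Vav1*, *Ptpn6*, *Egr1*, *Egr3* and *Nfatc1* were among the called genes of these lists. *Txk* and *Ifng* no longer passed (edgeR adjusted p = 0.0884 and 0.0646). Genes past the adjusted p as higher went from 4 to 0 for the constant genes, 12 to 3 for proximal signaling, 10 to 3 for negative regulators, 4 to 0 for the other receptors, 3 to 1 for ligands and 6 to 3 for activation targets.

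**Figure D4:**
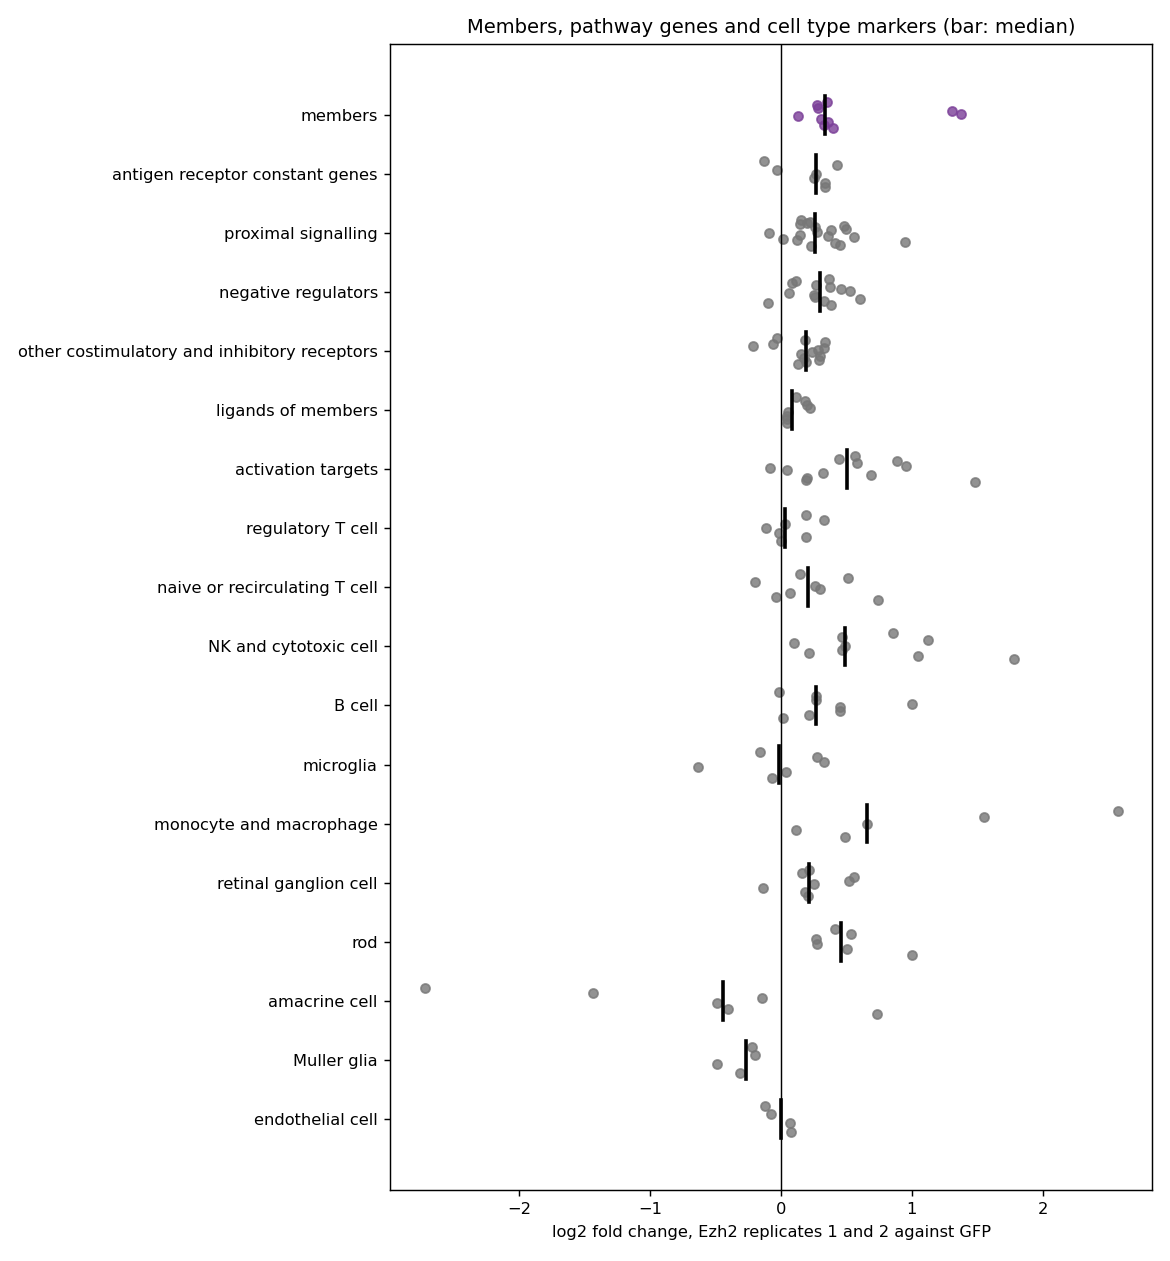
Each point is 1 tested gene, placed by its log2 fold change between Ezh2 replicates 1 and 2 and the GFP libraries, in rows for the members (purple), the pathway lists and the cell type marker lists. Black bars are medians, and the row of members shows *Cd8a* and *Cd8b1* at 1.38 and 1.31 beyond the cluster around the median of 0.34.

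Genes that mark T cell states were read next, since they too stood high in Ezh2 replicate 3. Of 7 regulatory T cell genes, 1 (*Tnfrsf18*) passed the adjusted p in the 5 libraries, with a median log2 fold change of 0.03, and their summed level was 213.9 to 224.1 CPM in the controls and 214.1 and 253.9 CPM in Ezh2 replicates 1 and 2. It was 1373 CPM in Ezh2 replicate 3. *Foxp3*, the transcription factor that defines these cells, had 9.50 to 10.7 CPM in the controls, 11.5 and 9.02 CPM in the other Ezh2 libraries and 92.4 CPM in Ezh2 replicate 3. *Il2ra*, the high-affinity interleukin receptor subunit, had 442 CPM there and at most 44.8 CPM elsewhere. Of 8 genes of naive or recirculating T cells, 4 passed as higher, and *S1pr1* was lower at -0.20 (edgeR adjusted p of 0.0105). In Ezh2 replicate 3, 7 of these 8 lay above both other Ezh2 libraries, where 32.5% of tested genes did. Their median log2 ratio was 1.43. Their sum was 707.5 CPM there, against 366.1 and 380.2 CPM. Of the 14 other costimulatory and inhibitory receptors, 13 lay above both as well, with a median of 1.58. Those receptors summed to 1662 CPM there, against 437.9 and 488.8 CPM. That list shares *Ctla4* and *Tnfrsf18* with the regulatory T cell list. Of 4 thymocyte genes, *Rag2* and *Ptcra* had at most 0.143 and 0.0976 CPM in any library. *Rag1* had 1.46 to 3.09 CPM and *Dntt* 0.945 to 1.93 CPM, and neither passed the test (edgeR adjusted p = 0.368 and 0.940). The part of regulatory T cell genes, or of these other gene groups, in the levels of the members in Ezh2 replicate 3 was not tested.

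**Figure D5:**
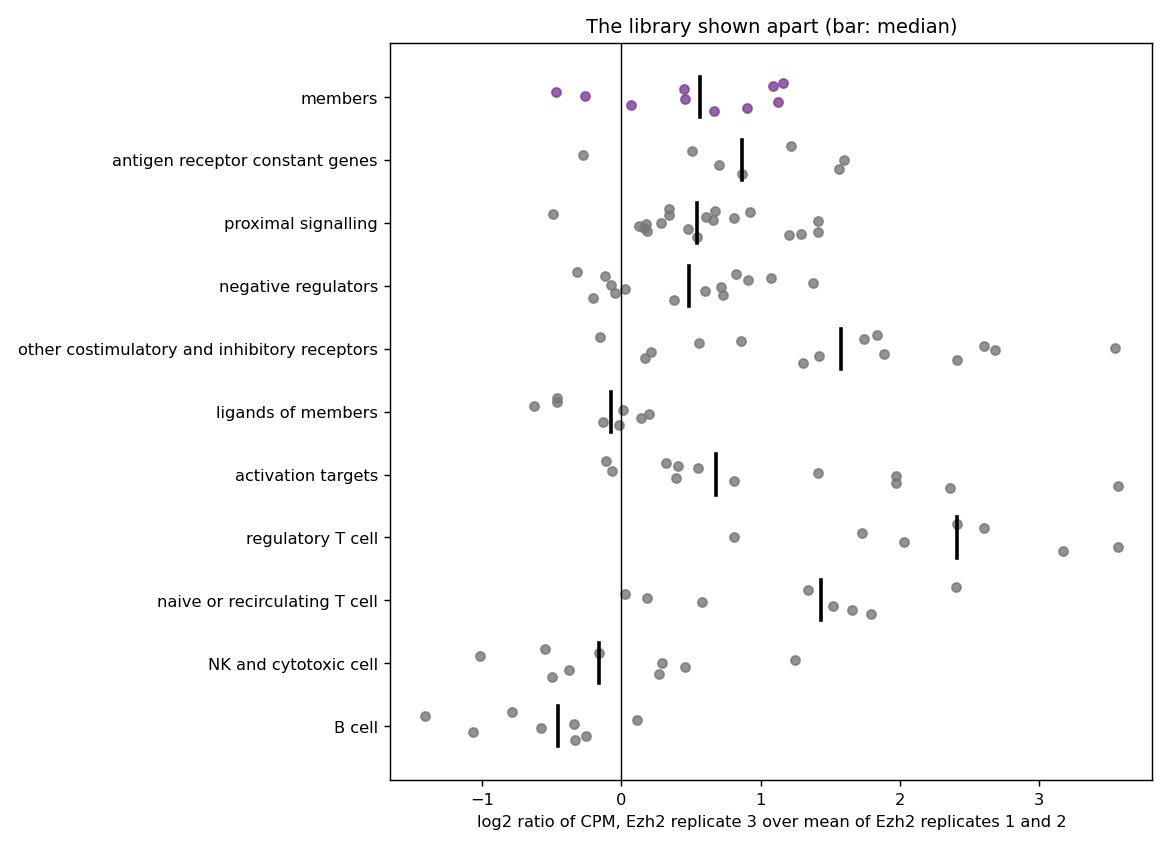
Points are genes placed by the log2 ratio of their CPM in Ezh2 replicate 3 to the mean of Ezh2 replicates 1 and 2, in rows for the members (purple), pathway lists and 4 immune cell marker lists, with medians as black bars. The members' median is 0.56 with *Cd8b1* lowest at -0.47 and *Cd28* highest at 1.16. Medians are 2.41 for regulatory T cells, 1.58 for the other costimulatory and inhibitory receptors and 1.43 for naive or recirculating T cells.

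Markers of other cells gave a mixed picture beside the members. Of 5 tested monocyte and macrophage genes, 3 were called higher (*Mrc1*, *Ms4a7* and *F13a1*), and the summed level of the 6 listed was 122.7 to 143.5 CPM in the controls and 209.1 and 212.9 CPM in Ezh2 replicates 1 and 2. Of 8 B cell genes, 2 passed the adjusted p as higher (*Cd22* and *Cd79b*) and 1 was called (*Cd22*). Their median log2 fold change was 0.27. Their sums were 479.8 to 531.9 CPM and 510.3 and 536.0 CPM, and *Jchain* made up most of these. *Jchain* had 440.5 to 490.3 CPM in the controls, 479.5 and 448.8 CPM in Ezh2 replicates 1 and 2 and 269.5 CPM in Ezh2 replicate 3. The neutrophil genes summed to at most 0.778 CPM in any library. The 6 microglial genes had a median log2 fold change of -0.02, with *Sall1* called lower, and summed to 699.6 to 798.7 CPM in the controls and 856.2 and 918.8 CPM in Ezh2 replicates 1 and 2. All 6 rod genes were at log2 fold changes above 0, with 4 past the adjusted p, and summed to 366.0 to 434.3 CPM and 659.1 and 700.2 CPM. In contrast, all 4 Muller glial genes passed as lower. None of 4 endothelial genes passed. Of 6 amacrine genes, 3 passed as lower and 1 of them, *Tfap2b*, was called lower. The log2 fold changes of the 6 ranged from -2.72 to 0.73, with a median of -0.44. Those 6 genes summed to 504.8 to 525.5 CPM in the controls and 438.1 to 446.1 CPM in Ezh2 replicates 1 and 2. Of 8 tested RGC genes 2 passed as higher, *Nefl* and *Thy1*, and 0 were called. *Thy1*, whose product was the sorting antigen, had 87.2 to 92.6 CPM in the controls, 108.8 and 98.9 CPM in Ezh2 replicates 1 and 2 and 113.8 CPM in Ezh2 replicate 3. In Ezh2 replicate 3, where 8 members stood highest, B cell genes summed to 311.9 CPM and microglial genes to 594.4 CPM. The sums there were 154.7 CPM for monocyte and macrophage genes, 391.7 CPM for rod genes and 8389 CPM for Muller glial genes. Against the mean of the other Ezh2 libraries, median log2 ratios were -0.46 for B cell and -0.61 for microglial genes. They were -0.37 for monocyte and macrophage, -0.71 for rod and -0.34 for Muller glial genes, beside -0.12 for all tested genes. The part of these cells in the levels of the members was not tested.

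The genes most like the members were sought by the distance between a gene's log2 profile and the mean profile of the members, each centered, over the 6 libraries and 13762 candidate genes with at least 100 counts on average. The smallest root mean square distance was that of *Arhgap25* (0.0364), a GTPase-activating protein gene of blood cells. *Lcp1* (0.0379), an actin-bundling protein of leukocytes, *Apobr* (0.0417), *Dusp2* (0.0463), a phosphatase induced in activated lymphocytes, and *Lgals1* (0.0553) followed. *Arhgap25* had 42.6 to 43.6 CPM in the controls, 60.7 and 59.8 CPM in Ezh2 replicates 1 and 2 and 83.5 CPM in Ezh2 replicate 3. Among the members themselves *Cd3d* lay nearest to their mean profile (0.0760) and *Cd8b1* furthest (0.406), at nearly the same distance as *Cd8a* (0.405). These distances describe 6 libraries and carry no test.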

How the data were processed

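The authors deposited unnormalized whole read counts for Ensembl genes in 6 libraries of total RNA made with a stranded kit, 3 with AAV2-*GFP* and 3 with AAV2-*Ezh2*. The submitters' processing notes name STAR 2.7.0d and GRCm38. The counting program, annotation release and strand setting are not given in the sources used here. Every column matched a labeled sample (0 did not), and 55480 of 55573 genes to GENCODE M21, which gave symbols, coordinates and exon lengths. The members and gene lists were chosen with earlier results of these data known.

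After filterByExpr and scaling by TMM factors, genes were tested with the robust quasi-likelihood F test of edgeR 4.0.16 (R 4.3.3), with group as the only term. P values were adjusted by the Benjamini-Hochberg method over all tested genes. Calls needed an adjusted p under 0.05 with a change over 1.5-fold. Levels were counts per 1000000 of the library total (CPM), and RPKM where genes were compared with each other. SE were taken from the F statistic. A count of 0 allows up to 3 counts, or 0.0834 to 0.0981 CPM. Floors and Wilson intervals cover counting error only, as reads carry no molecular identifiers. Intervals of fold changes were built from the SE of the fit, so they include the spread between libraries. Measures with 1 value per library were compared by two-sided exact permutation tests. The genes named are the members, the genes of the lists, *Ezh2* and the 5 genes nearest to the members' mean profile, with overlapping genes named where they bear on a member. DESeq2 1.42.0, limma-voom (limma 3.58.1), other scaling, other filters, a block for the replicate number, all 6 libraries and omission of each library were tried as alternatives. Fits without robust moderation were added after seeing the data. The fit was tested on simulated counts. Within-group libraries differed by more than sampling noise. Results for some listed genes are not reported here. Promoter windows came from RefSeq. Pictures were drawn with matplotlib 3.10.9.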

Additional observations from a re-analysis of the deposited data

Results flagged for a closer look

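Ezh2 replicate 3 did not enter the main comparison, so the levels of the 10 members there are given here. The levels were 56.4 CPM for *Cd3d*, 89.2 CPM for *Cd3e*, 83.4 CPM for *Cd3g* and 88.6 CPM for *Cd247*. The coreceptor genes had 153 CPM (*Cd4*), 37.9 CPM (*Cd8a*) and 19.96 CPM (*Cd8b1*). *Lck* had 134 CPM, *Zap70* 96.6 CPM and *Cd28* 89.8 CPM. Compared with the GFP mean, these were 1.33 times (*Cd3g*) to 2.84 times (*Cd28*) as high. This is 1 library, so the difference has no test.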

How the results depend on the processing

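The 2 calls of *Cd8a* and *Cd8b1* and the absence of members called lower held under each of the 21 alternatives to the main fit. With all 6 libraries, members past the adjusted p went from 9 to 3 and their median log2 fold change from 0.34 to 0.76. Leaving out 1 library gave medians of 0.30 to 0.40 from the 5 libraries and 0.74 to 0.96 from the 6. Members past the adjusted p were 8 to 9 without 1 GFP library of the 5, and 2 to 3 without 1 library of the 6. Over all tested genes, those past it as higher were 1623 to 1826 and 74 to 445 in these fits (19851 to 20297 tested). They were 2050 of 20241 in the main fit and 608 of 19732 with all 6 libraries. Deviations from the group means correlated by -0.0045, -0.0199 and -0.0099 between libraries of the same replicate number. Those means include Ezh2 replicate 3, which differed most from its group, so the correlations cannot decide whether libraries were paired. A fit blocked on replicate number (replicate block) gave 9 members past the adjusted p in 5 libraries and 2, with a median of 0.66, in all 6. Over all tested genes, 1548 of 20241 and 401 of 19732 passed it as higher in these block fits. Over the 10 genes, 6 lost the adjusted p with all 6 libraries and 7 with the block in all 6. The log2 ratio of summed CPM was 0.37, 0.58 with all 6 libraries (0.33 to 0.41 and 0.56 to 0.70 with 1 library left out of the 5 or the 6) and 0.50 for the geometric mean of the members. The difference in the *Cd4* share was -14.3 percentage points, -11.3 with all 6 libraries, and -15.6 to -13.0 or -11.6 to -9.08 with 1 library left out of the 5 or the 6. The median log2 ratio of Ezh2 replicate 3 was 0.56, 0.64 with TMM-scaled totals and 1.08 against the GFP mean. DESeq2, limma-voom, 3 other scalings, 2 other filters and fits without robust moderation changed no call of a member. Without Ezh2 replicate 1, *Cd28*, *Cd3e* and *Zap70* did not pass in the 5 libraries, nor did *Zap70* without GFP replicate 2. The cause of these losses was not tested.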
